A study of Mus musculus with 9 samples.

Results

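Integrins are the cell-surface receptors that tie cells to the matrix and to each other, and laminins are the matrix proteins of the basement membrane that many of them bind. Every subunit gene of either family was taken by its symbol, apart from pseudogenes. The files held 38 such genes of 38926: 10 subunits of leukocyte and platelet integrins, 17 matrix integrin subunits and 11 laminin chains. The symbols alone decided which genes were taken, but both families were chosen with earlier results of these data known.

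The tissue was whole lumbar dorsal root ganglia, levels L3, L4 and L5, where the sensory neurons of the hind limb have their cell bodies. The ganglia came from male wild-type C57BL/6 mice of 8 to 10 weeks, on the side of the treated paws. Mice had been given cisplatin or oxaliplatin into the sole of the paw, to a cumulative 40 µg of either drug, or vehicle, and no allele or other agent was labelled for any group. Each group had 3 libraries, and a library holds the pooled RNA of 4 animals, so the spread between single animals was not measured. Cisplatin and oxaliplatin are both platinum drugs used against cancer, and in oxaliplatin the ammine ligands of cisplatin are replaced by a diaminocyclohexane carrier and the chlorides by oxalate.

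An integrin is a pair of 1 alpha and 1 beta chain. The beta chain Itgb2 and its alpha partners, such as Itgam and Itgal, are made by leukocytes and let them hold to vessel walls. Some of the chains that pair with Itgb1, and the pair of Itga6 with Itgb4, fasten Schwann cells and other cells to laminin. A laminin is a trimer of 1 alpha, 1 beta and 1 gamma chain. Schwann cells need the trimers that contain Lama2 to sort and myelinate axons, and Lama4 is typical of vessels and of nerve.

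Promoter windows of members whose levels are described below are given first, so that members can be set beside partners or paralogs with other values. They are RefSeq windows of build GRCm38.p6, from 250 bases before to 50 bases after the annotated start, and 24 of the 38 genes had one. All are written 5′ to 3′ along the gene. For the leukocyte integrins, capitals mark GAGGAA or its reverse complement TTCCTC, the core that the myeloid factor PU.1 binds. The window of Itgam, the alpha chain of the myeloid integrin Mac-1, is chr7:128062390-128062689 on the plus strand, and it held 3 matches. Itgax, its neighbour on the chromosome and an alpha chain of dendritic cells and macrophages, has the window chr7:128129300-128129599 on the plus strand, with 0 matches. The window of Itgb7, the beta chain of the gut-homing lymphocyte integrins, is chr15:102231886-102232185 on the minus strand, with 1 match. Itgb2l, a beta chain related to Itgb2, has the window chr16:96443565-96443864 on the minus strand, with 2 matches. Itga4, the alpha chain that pairs with Itgb1 or Itgb7 and binds Vcam1, has the window chr2:79255176-79255475 on the plus strand, with 0 matches.
Itgam: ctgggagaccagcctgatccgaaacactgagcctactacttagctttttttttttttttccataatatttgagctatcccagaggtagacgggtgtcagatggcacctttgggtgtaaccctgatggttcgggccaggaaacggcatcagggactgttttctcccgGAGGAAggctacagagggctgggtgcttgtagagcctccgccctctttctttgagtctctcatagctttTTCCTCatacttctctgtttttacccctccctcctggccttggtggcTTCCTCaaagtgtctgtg
Itgax: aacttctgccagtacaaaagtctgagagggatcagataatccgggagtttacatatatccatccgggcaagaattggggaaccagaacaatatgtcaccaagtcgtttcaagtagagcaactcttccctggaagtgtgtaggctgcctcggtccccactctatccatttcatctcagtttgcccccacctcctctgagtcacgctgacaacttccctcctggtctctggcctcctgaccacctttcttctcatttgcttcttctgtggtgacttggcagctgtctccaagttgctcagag
Itgb7: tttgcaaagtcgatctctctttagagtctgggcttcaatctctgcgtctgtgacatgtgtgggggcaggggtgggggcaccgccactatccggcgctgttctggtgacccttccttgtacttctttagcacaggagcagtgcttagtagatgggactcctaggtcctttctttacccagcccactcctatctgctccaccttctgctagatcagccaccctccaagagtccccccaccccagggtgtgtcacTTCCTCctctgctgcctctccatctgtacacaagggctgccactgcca
Itgb2l: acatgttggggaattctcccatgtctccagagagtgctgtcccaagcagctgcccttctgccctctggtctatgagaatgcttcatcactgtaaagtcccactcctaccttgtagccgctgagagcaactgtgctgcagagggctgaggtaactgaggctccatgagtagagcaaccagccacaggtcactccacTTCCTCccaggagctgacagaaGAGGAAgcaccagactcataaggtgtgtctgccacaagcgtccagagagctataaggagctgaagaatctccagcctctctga
Itga4: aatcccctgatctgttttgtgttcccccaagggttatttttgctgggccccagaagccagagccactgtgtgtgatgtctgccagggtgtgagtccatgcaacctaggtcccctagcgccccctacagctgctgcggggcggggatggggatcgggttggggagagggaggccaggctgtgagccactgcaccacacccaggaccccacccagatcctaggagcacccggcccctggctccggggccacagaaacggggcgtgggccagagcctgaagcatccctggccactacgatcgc

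For a pair of laminin beta chains, capitals mark GGGCGG or its reverse complement CCGCCC, the GC box bound by Sp1. The window of Lamb2 is chr9:108479612-108479911 on the plus strand, with 0 matches, and that of Lamb1 is chr12:31265043-31265342 on the plus strand, with 2 matches.
Lamb2: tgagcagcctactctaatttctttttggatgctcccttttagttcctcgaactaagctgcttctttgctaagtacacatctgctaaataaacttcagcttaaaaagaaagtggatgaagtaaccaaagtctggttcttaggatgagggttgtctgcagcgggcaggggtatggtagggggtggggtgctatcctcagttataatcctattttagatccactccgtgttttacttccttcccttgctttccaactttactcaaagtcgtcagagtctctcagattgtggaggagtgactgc
Lamb1: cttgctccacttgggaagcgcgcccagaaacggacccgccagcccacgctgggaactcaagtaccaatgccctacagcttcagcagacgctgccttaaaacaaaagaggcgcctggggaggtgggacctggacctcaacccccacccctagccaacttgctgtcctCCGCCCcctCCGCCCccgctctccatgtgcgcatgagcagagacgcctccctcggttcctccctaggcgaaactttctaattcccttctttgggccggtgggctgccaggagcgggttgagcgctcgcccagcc
GAGGAA occurred on either strand in 28.28% of the 32851 promoter windows of this length, and in windows of 15 of the 24 member genes. GGGCGG occurred in 35.66% of all windows and in windows of 11 of the 24 member genes. The motifs can share no more than an end letter, and a match is a run of letters, not a measured binding site.

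Levels are given in CPM, read counts relative to library size, scaled by TMM, which sets the libraries to a common level for most genes. Differences are log2 fold changes with standard errors (SE) from edgeR's quasi-likelihood test. A gene was called at a Benjamini-Hochberg adjusted p under 0.05 over 17348 genes tested, and all 38 members passed the filter on low counts. Itgad, the alpha D chain of macrophage integrins, passed only through drug libraries: its counts reached the minimum in 3 cisplatin libraries, 1 oxaliplatin library and 0 vehicle libraries. Libraries held 22819185 to 38808509 reads in genes, and 3 counts, taken as the detection floor, came to 0.0711 to 0.188 CPM. All 14 sensory neuron markers were detected in every group, with summed levels of 18922 to 21344 CPM in cisplatin, 19942 to 20938 CPM in oxaliplatin and 20552 to 21868 CPM in vehicle. The vehicle libraries stood apart from the drug libraries: reads outside genes made up 18.6 to 19.1% of uniquely aligned reads in cisplatin, 16.6 to 17.8% in oxaliplatin and 26.2 to 47.7% in vehicle. Vehicle library 2 stood furthest apart, with 32.9% of its gene reads in its 10 most abundant genes, against 6.81 to 8.93% in the other 8 libraries. Counts over all members and over the 3 classes are therefore given with and without it.

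Set side by side, 11 of the 38 members rose and 7 fell in cisplatin against vehicle, where 15.8% of all genes tested rose and 22.9% fell. In oxaliplatin against vehicle 7 members rose and 7 fell, where 17.5% of all genes tested rose and 24.1% fell. The leukocyte and platelet integrins made up 6 of the 11 increases in cisplatin and 4 of the 7 in oxaliplatin. Without Itgad, which passed the filter only through drug libraries, they made up 5 of 10 in cisplatin. Their median log2 fold change was 0.77 in cisplatin and 0.51 in oxaliplatin (0.65 and 0.43 without Itgad), against -0.13 for the matrix integrins in both comparisons and 0.03 and 0.09 for the laminins. Under library totals the medians were 1.06 and 0.81 for the leukocyte and platelet integrins, Itgad included. They were 0.17 in both for the matrix integrins, whose sign thus turned, and 0.32 and 0.39 for the laminins. The median over all genes tested was 0.00 in either comparison. Both comparisons use the same 3 vehicle libraries, so a deviation of those libraries enters both. Without vehicle library 2, 10 members rose and 6 fell in cisplatin, where 19.2% of all genes tested rose and 22.1% fell, and 8 rose and 6 fell in oxaliplatin, where 20.4% rose and 23.0% fell. Of the leukocyte and platelet integrins 7 then rose and 1 fell in cisplatin, and 4 rose and 1 fell in oxaliplatin. The 7 include Itgad.

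**Figure D1:**
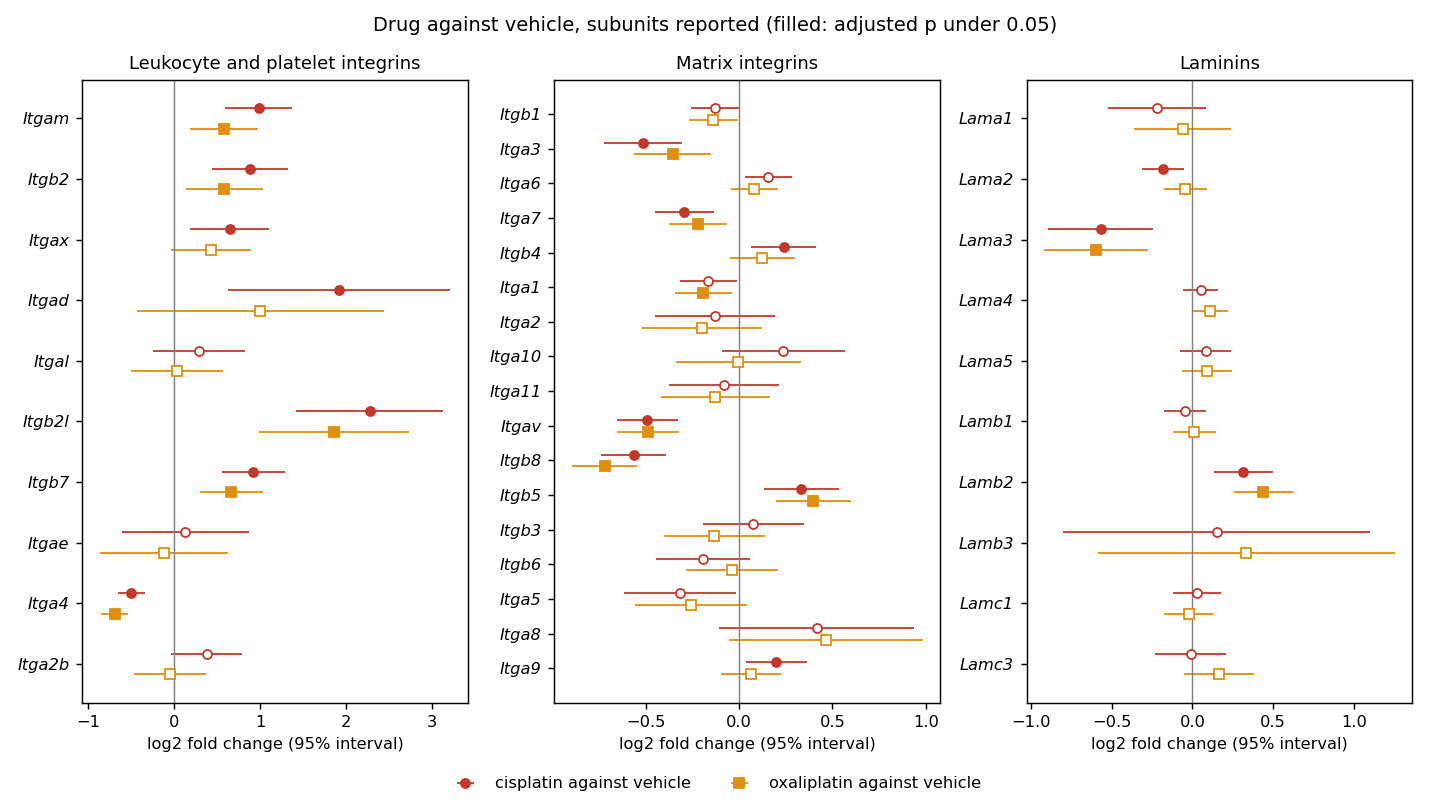
Log2 fold changes (x axis, with 95% intervals) of the subunit genes reported here (y axis) in cisplatin against vehicle (circles) and oxaliplatin against vehicle (squares), 3 libraries a group, by class; filled symbols have an adjusted p under 0.05. Most leukocyte chains lie right of 0 while Itga4 lies left of it (-0.50 in cisplatin and -0.69 in oxaliplatin), and Itgb8 and Lama3 lie left of 0 in both comparisons.

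Among the leukocyte chains, the pair that forms Mac-1 rose together. Itgam stood at 11.4, 9.81 and 9.49 CPM in the cisplatin libraries, 6.24, 8.65 and 8.34 CPM in the oxaliplatin libraries and 3.86, 6.95 and 5.14 CPM in the vehicle libraries. Every cisplatin library was above every vehicle library, while oxaliplatin library 1 lay below vehicle library 2. The log2 fold change of Itgam was 0.98 (SE 0.18, adjusted p = 0.00119) in cisplatin and 0.58 (SE 0.18, adjusted p = 0.0222) in oxaliplatin. Itgb2, its beta chain, stood at 9.12, 8.32 and 6.94 CPM in cisplatin, 5.26, 7.01 and 7.51 CPM in oxaliplatin and 3.37, 6.33 and 4.0 CPM in vehicle, with the same pattern of overlap. It rose by 0.89 (SE 0.20, adjusted p = 0.0047) in cisplatin and by 0.59 (SE 0.20, adjusted p = 0.0365) in oxaliplatin. The oxaliplatin call of Itgb2 was lost once the library-by-library dependence of counts on GC and exon length, called the GC and length trend here, was taken out (0.46, adjusted p = 0.0707). The oxaliplatin calls of Itgam and Itgb2 were lost without any 1 of oxaliplatin library 2 or 3 or vehicle library 1 or 3 (0.42 to 0.58 for Itgam and 0.43 to 0.54 for Itgb2), and that of Itgb2 also without cisplatin library 2 (0.58, adjusted p = 0.0506). In both genes vehicle library 2 was the highest of the vehicle libraries. Without it the log2 fold change of Itgam was 1.19 in cisplatin and 0.80 in oxaliplatin, and that of Itgb2 was 1.15 and 0.85. The annotation also places 3450 of the 5024 exonic bases of Itgam in Gm49368, on the same strand, which was not analysed here.

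Itgb2l had the largest log2 fold change of the 38 members in both comparisons, from a low level, although without vehicle library 2 that of Itgad was larger in cisplatin (2.78, against 2.62 for Itgb2l). It stood at 2.52, 2.68 and 1.86 CPM in cisplatin, 0.934, 2.06 and 2.31 CPM in oxaliplatin and 0.450, 0.814 and 0.325 CPM in vehicle, so both drug groups lay wholly above vehicle. The change was 2.27 (SE 0.39, adjusted p = 0.000844) in cisplatin and 1.86 (SE 0.40, adjusted p = 0.00319) in oxaliplatin. Itgb7 stood at 6.17, 5.45 and 4.36 CPM in cisplatin, 4.47, 4.17 and 4.72 CPM in oxaliplatin and 3.15, 3.26 and 2.18 CPM in vehicle. It rose by 0.92 (SE 0.17, adjusted p = 0.0012) in cisplatin and 0.67 (SE 0.17, adjusted p = 0.00813) in oxaliplatin, again with no overlap with vehicle.

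The remaining myeloid alpha chains were scarce. Itgax stood at 1.1, 1.23 and 1.36 CPM in cisplatin, 1.06, 0.995 and 1.14 CPM in oxaliplatin and 0.600, 0.814 and 0.943 CPM in vehicle, so both drug groups lay above vehicle. It rose in cisplatin (0.65, SE 0.21, adjusted p = 0.0293), and its oxaliplatin value of 0.43 was not called (adjusted p = 0.125). Under library totals the oxaliplatin value was called (0.72, adjusted p = 0.0352). The cisplatin call was lost without cisplatin library 2 or 3 or vehicle library 1 (0.65, 0.60 and 0.49), by DESeq2 (0.66, adjusted p = 0.0722) and in a fit of the 2 groups alone (0.65, adjusted p = 0.0503). Itgad gave 11, 21 and 11 reads in the cisplatin libraries, 12, 6 and 6 in the oxaliplatin libraries and 2, 4 and 1 in the vehicle libraries, and vehicle libraries 1 and 3 lay under the floor of 3 counts. Its depth-scaled count ratio to vehicle was 3.96 (95% interval 1.76 to 10.4) in cisplatin and 2.07 (0.866 to 5.69) in oxaliplatin, intervals that cover counting error only. Since Itgad entered the test only through drug libraries it had to differ, so its edgeR adjusted p (0.0231 in cisplatin and 0.244 in oxaliplatin) is a description. The cisplatin call of Itgad was lost without cisplatin library 2, vehicle library 1 or vehicle library 3 (adjusted p = 0.0891, 0.0875 and 0.116). Itgal, the alpha chain of the lymphocyte integrin LFA-1, stood at 2.35, 2.48 and 2.23 CPM in cisplatin, 1.43, 2.04 and 2.46 CPM in oxaliplatin and 1.69, 2.88 and 1.5 CPM in vehicle. It was not called in either comparison under TMM scaling (0.29, adjusted p = 0.366 in cisplatin, and 0.04, adjusted p = 0.922 in oxaliplatin). Under library totals Itgal was called in cisplatin (0.59, adjusted p = 0.0244). Itgae, the alpha chain of epithelial lymphocytes, was between 0.389 and 1.09 CPM in all 9 libraries and was not called.

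**Figure D2:**
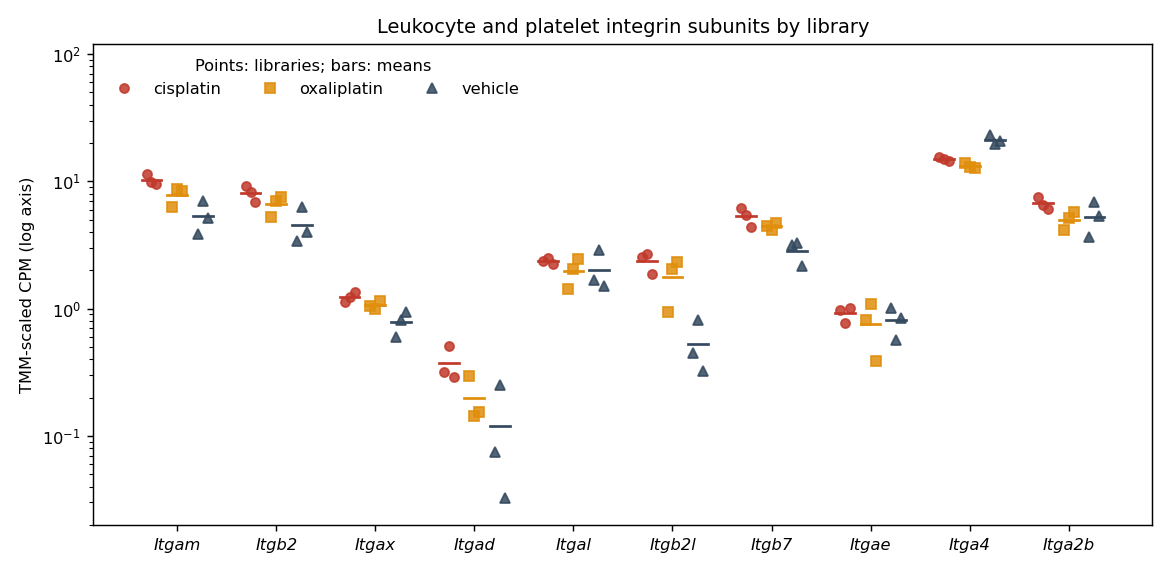
TMM-scaled CPM on a log axis (y) of the 10 leukocyte and platelet integrin subunits (x) in every library (points, 3 a group, with bars at the means). Itgam, Itgb2, Itgb2l and Itgb7 are highest in cisplatin and lowest in vehicle by their means, and Itga4 has the opposite order between drugs and vehicle (15.1 in cisplatin, 13.2 in oxaliplatin and 21.2 CPM in vehicle).

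Of the leukocyte and platelet chains 6 rose in cisplatin, or 5 without Itgad, and 4 rose in oxaliplatin. Over all genes tested 15.8% rose and 22.9% fell in cisplatin, and 17.5% rose and 24.1% fell in oxaliplatin. Itga4 fell in both drugs. It stood at 15.5, 15.1 and 14.6 CPM in cisplatin, 13.9, 12.9 and 12.8 CPM in oxaliplatin and 23.0, 19.7 and 20.8 CPM in vehicle, with no overlap between either drug and vehicle. It fell by 0.50 on the log2 scale in cisplatin (SE 0.07, adjusted p = 0.000288) and by 0.69 in oxaliplatin (SE 0.07, adjusted p = 3.25e-05). The oxaliplatin call held under every alternative run, at -0.39 (adjusted p = 0.0257) under library totals and -0.26 (adjusted p = 0.00788) once the GC and length trend was taken out. The cisplatin call was lost under library totals (-0.21, adjusted p = 0.255) and once the GC and length trend was taken out (-0.07, adjusted p = 0.442); Itga4 has 13978 exonic bases. The annotation places 1124 of them opposite exons of Cerkl, which had 38 to 77 reads per library, and without the counting's strand setting such reads cannot be assigned with certainty. Itga2b, the alpha chain of the platelet fibrinogen receptor, stood at 7.51, 6.53 and 6.09 CPM in cisplatin, 4.13, 5.16 and 5.73 CPM in oxaliplatin and 3.64, 6.89 and 5.33 CPM in vehicle. It was not called in cisplatin (0.38, adjusted p = 0.132) but was without vehicle library 2 (0.59, adjusted p = 0.0207). In oxaliplatin it was not called (-0.04, adjusted p = 0.875). Under library totals Itga2b was called in cisplatin (0.68, adjusted p = 0.000596).

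Markers of neutrophils and macrophages moved beside these chains. For comparison, 15.8% of all genes tested rose and 22.9% fell in cisplatin, and 17.5% rose and 24.1% fell in oxaliplatin. All 12 neutrophil markers rose in cisplatin and 11 of 12 in oxaliplatin, and their summed level was 186 to 297 CPM in cisplatin, 98.8 to 223 CPM in oxaliplatin and 47.7 to 113 CPM in vehicle. Ltf, a protein of neutrophil granules, rose by 1.79 in cisplatin and 1.30 in oxaliplatin. Of 11 macrophage markers, 10 rose in cisplatin and 8 in oxaliplatin, with sums of 149 to 179 CPM in cisplatin, 157 to 169 CPM in oxaliplatin and 101 to 135 CPM in vehicle. Lymphocyte markers rose in 3 of 10 in cisplatin and 2 of 10 in oxaliplatin, with sums of 5.0 to 7.74 CPM in cisplatin, 4.55 to 6.45 CPM in oxaliplatin and 2.55 to 4.51 CPM in vehicle. Of 7 platelet markers only Pf4 was called, upward in both comparisons, the median of the 7 was 0.70 in cisplatin and -0.65 in oxaliplatin, and their sum was 14.4 to 17 CPM in cisplatin, 8.82 to 10.1 CPM in oxaliplatin and 7.76 to 15.2 CPM in vehicle. None of these markers was at 0 in any group. Their part in the integrin values was not tested. In whole ganglia, more cells of a type and more RNA per cell cannot be told apart.

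Calls among the matrix integrins ran both ways under TMM scaling alone. Their summed level was 1256 to 1335 CPM in cisplatin, 1210 to 1314 CPM in oxaliplatin and 1459 to 1520 CPM in vehicle. The leukocyte and platelet chains summed to 48.2 to 57.0 CPM in cisplatin, 38.5 to 45.5 CPM in oxaliplatin and 40.9 to 48.4 CPM in vehicle. In these sums Itga4 averaged 15.1 of 52.7 CPM in cisplatin, 13.2 of 42.7 CPM in oxaliplatin and 21.2 of 43.4 CPM in vehicle. In cisplatin 3 of 17 matrix integrins rose and 4 fell, where 15.8% of all genes tested rose and 22.9% fell. In oxaliplatin 1 rose and 5 fell, where 17.5% of all genes tested rose and 24.1% fell. Without vehicle library 2, 2 rose and 4 fell in either drug. Of all genes tested 19.2% then rose and 22.1% fell in cisplatin, and 20.4% and 23.0% in oxaliplatin. Once the GC and length trend was taken out, 5 of 17 rose and 4 fell in cisplatin, and 5 rose and 3 fell in oxaliplatin. The shares of all genes were then 15.7% and 17.5% in cisplatin, and 17.4% and 17.1% in oxaliplatin. Under library totals 6 of 17 rose and 0 fell in cisplatin, and 5 rose and 1 fell in oxaliplatin. With that scaling 34.5% of all genes rose and 5.29% fell in cisplatin, and 36.9% and 5.74% in oxaliplatin. Between genes, levels were compared as CPM per kilobase of exon. In vehicle Itgb1, the beta chain shared by most matrix integrins, led with 106 ± 3.76 (SD, n = 3), ahead of Itgb8 at 30.7 ± 2.04 and Itga7 at 23.3 ± 0.617. Lamc1, Itga3, Lamb1, Lamb2 and Itga6 followed between 14.3 and 16.7, each within the spread of its neighbours. Itgb1 stood at 388, 391 and 405 CPM in cisplatin, 411, 378 and 386 CPM in oxaliplatin and 443, 437 and 414 CPM in vehicle. It was not called in cisplatin (-0.13, adjusted p = 0.111) or oxaliplatin (-0.14, adjusted p = 0.0833), and under library totals the sign turned (0.17 in both, not called).

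Of the laminin receptor chains, 2 alpha chains fell. Itga3 stood at 60.3, 63.1 and 73.5 CPM in cisplatin, 82.3, 64.3 and 73.5 CPM in oxaliplatin and 99.1, 85.4 and 96.4 CPM in vehicle. It fell by 0.52 in cisplatin (SE 0.10, adjusted p = 0.00136) and by 0.36 in oxaliplatin (SE 0.09, adjusted p = 0.0106), with every drug library below every vehicle library. Itga7, an alpha chain of muscle and of Schwann cells, stood at 139, 153 and 170 CPM in cisplatin, 174, 153 and 160 CPM in oxaliplatin and 192, 183 and 191 CPM in vehicle. Its changes were -0.29 (SE 0.07, adjusted p = 0.00719) in cisplatin and -0.22 (SE 0.07, adjusted p = 0.0278) in oxaliplatin. Under library totals neither alpha chain was called in either drug, and without vehicle library 1 neither was called in oxaliplatin (-0.29 for Itga3 and -0.18 for Itga7). The oxaliplatin call of Itga7 was also lost without oxaliplatin library 2 or 3 or vehicle library 3 (-0.18, -0.21 and -0.21), with no count filter (-0.17, adjusted p = 0.0774) and once the GC and length trend was taken out (-0.12, adjusted p = 0.134). In cisplatin the trend-removed value of Itga7 was -0.19 (adjusted p = 0.0270). With library totals Itga7 was at -0.00 and 0.08. Itga6, the alpha chain of hemidesmosomes, stood at 150, 146 and 137 CPM in cisplatin, 137, 135 and 139 CPM in oxaliplatin and 120, 129 and 139 CPM in vehicle, and was not called (0.16, adjusted p = 0.0504 in cisplatin, and 0.08, adjusted p = 0.285 in oxaliplatin). In cisplatin Itga6 was called without cisplatin library 3 (0.22), oxaliplatin library 1 (0.18) or vehicle library 3 (0.21). Under library totals Itga6 was called in cisplatin (0.45, adjusted p = 0.0128) and oxaliplatin (0.39, adjusted p = 0.0320). It was also called in both once the GC and length trend was taken out (0.36, adjusted p = 0.000726, and 0.28, adjusted p = 0.00297). Itgb4, its partner, stood at 88.2, 90.8 and 79.0 CPM in cisplatin, 76.3, 76.1 and 86.0 CPM in oxaliplatin and 69.8, 82.0 and 67.8 CPM in vehicle, where vehicle library 2 overlapped the cisplatin range. It rose in cisplatin (0.24, SE 0.08, adjusted p = 0.0334) and was not called in oxaliplatin (0.12, adjusted p = 0.237). The cisplatin call of Itgb4 was lost without cisplatin library 1 or 2 or vehicle library 1 or 3 (0.18 to 0.23), and without vehicle library 2 Itgb4 was called in oxaliplatin (0.23, adjusted p = 0.0296). Itgb4 was also called in oxaliplatin under library totals (0.44, adjusted p = 0.0122) and with the trend taken out (0.25, adjusted p = 0.0365).

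Collagen receptor chains gave 0 calls among 4 in cisplatin by edgeR, with 1 at an unadjusted p under 0.05, and 1 lower in oxaliplatin. Over all genes tested 15.8% rose and 22.9% fell in cisplatin, and 17.5% rose and 24.1% fell in oxaliplatin. Once the GC and length trend was taken out 1 chain rose in each drug, where 15.7% and 17.4% of all genes rose. The 1 that fell was Itga1, a collagen-binding alpha chain, at 18.4, 18.0 and 17.9 CPM in cisplatin, 17.9, 17.8 and 17.7 CPM in oxaliplatin and 21.7, 21.2 and 18.2 CPM in vehicle. Its change was -0.19 (SE 0.07, adjusted p = 0.0458) in oxaliplatin and -0.17 (adjusted p = 0.0833) in cisplatin. The oxaliplatin call was lost without any 1 library other than vehicle library 3 (-0.11 to -0.19), and without vehicle library 3 Itga1 was called in cisplatin too (-0.25, adjusted p = 0.0114). Only 3 of 21 alternatives kept the oxaliplatin call. It was also lost by DESeq2 and limma-voom, under library totals, with other count filters and in a fit of the 2 groups alone. Itga1 has the longest exons of the 38 members, 18599 bases, and once the GC and length trend was taken out its values turned to 0.36 (adjusted p = 0.00489) in oxaliplatin and 0.39 (adjusted p = 0.00372) in cisplatin. Itga2, Itga10 and Itga11 averaged between 1.85 and 6.86 CPM in each group.

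Receptors of the RGD motif and of vascular matrix gave 2 increases and 2 decreases among 8 in cisplatin, and 1 and 2 in oxaliplatin. The shares over all genes tested were 15.8% and 22.9% in cisplatin, and 17.5% and 24.1% in oxaliplatin. Itgb8, a beta chain that pairs with Itgav and helps activate latent TGF-beta, stood at 233, 204 and 252 CPM in cisplatin, 218, 201 and 199 CPM in oxaliplatin and 346, 359 and 315 CPM in vehicle. Every drug library lay below every vehicle library. It fell by 0.57 in cisplatin (SE 0.08, adjusted p = 0.000248) and by 0.72 in oxaliplatin (SE 0.08, adjusted p = 4.25e-05). Itgav, the alpha chain it needs, stood at 86.5, 86.0 and 96.0 CPM in cisplatin, 97.0, 83.6 and 88.7 CPM in oxaliplatin and 131, 134 and 113 CPM in vehicle, a change of -0.49 in both drugs (SE 0.08 in each, adjusted p = 0.000401 in cisplatin and 0.000384 in oxaliplatin). Under library totals only Itgb8 in oxaliplatin kept its call among these 4 values (-0.41, adjusted p = 0.0304). Once the GC and length trend was taken out Itgb8 was at -0.24 (adjusted p = 0.0199) in cisplatin and -0.37 (adjusted p = 0.00148) in oxaliplatin, and Itgav at -0.23 (adjusted p = 0.0199) and -0.24 (adjusted p = 0.0156). Itgb5, another beta partner of Itgav, went the other way, at 41.1, 33.5 and 31.9 CPM in cisplatin, 34.3, 38.5 and 38.2 CPM in oxaliplatin and 26.3, 28.8 and 29.3 CPM in vehicle. It rose by 0.33 (SE 0.09, adjusted p = 0.0139) in cisplatin and 0.40 (SE 0.09, adjusted p = 0.005) in oxaliplatin, and the cisplatin call was lost without cisplatin library 1 (0.22, adjusted p = 0.0505) or vehicle library 1 (0.31, adjusted p = 0.0528). Itga9, a receptor chain for tenascin, stood at 17.9, 17.6 and 16.2 CPM in cisplatin, 15.5, 14.9 and 16.6 CPM in oxaliplatin and 14.7, 14.2 and 16.0 CPM in vehicle. Its cisplatin call was marginal (0.20, adjusted p = 0.0492) and was lost by DESeq2 and limma-voom, in a fit of the 2 groups alone and without cisplatin library 1 or 2, oxaliplatin library 2 or 3, or vehicle library 1 or 2 (0.17 to 0.21). The cisplatin and vehicle libraries of Itga9 did not overlap. Itgb3, the beta chain of the platelet and vascular receptors, stood at 26.5, 27.9 and 31.2 CPM in cisplatin, 24.2, 24.0 and 25.9 CPM in oxaliplatin and 24.3, 22.4 and 33.7 CPM in vehicle, and was not called (0.08, adjusted p = 0.657 in cisplatin, and -0.13, adjusted p = 0.415 in oxaliplatin). Without vehicle library 3 Itgb3 was called in cisplatin (0.28, adjusted p = 0.0243). It was also called there under library totals (0.35, adjusted p = 0.0457). Itga5, Itga8 and Itgb6 averaged 1.5 to 5.99 CPM and were not called under TMM scaling alone.

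Some markers of the cells that carry matrix integrins also differed. The counts stand beside 15.8% of all genes tested higher and 22.9% lower in cisplatin, and 17.5% and 24.1% in oxaliplatin. Of 11 myelinating Schwann cell markers 10 rose in cisplatin and 5 in oxaliplatin, with sums of 5626 to 6966 CPM in cisplatin, 5390 to 5666 CPM in oxaliplatin and 4254 to 5107 CPM in vehicle. Of 7 markers of non-myelinating Schwann cells 5 fell in either drug, with sums of 1654 to 1944 CPM in cisplatin, 1695 to 2128 CPM in oxaliplatin and 2472 to 2780 CPM in vehicle. Endothelial markers rose in 7 of 11 in cisplatin and 10 of 11 in oxaliplatin, with sums of 158 to 199 CPM in cisplatin, 167 to 192 CPM in oxaliplatin and 119 to 147 CPM in vehicle. Pericyte markers rose in 5 and 6 of 11, and their sums were 358 to 392.4 CPM in cisplatin, 373 to 380 CPM in oxaliplatin and 341 to 358 CPM in vehicle. Of 9 fibroblast markers 9 rose in cisplatin and 6 in oxaliplatin, with sums of 2386 to 2766 CPM in cisplatin, 2448 to 2612 CPM in oxaliplatin and 1888 to 2131 CPM in vehicle. Perineurial markers rose in 7 and 6 of 10 and fell in 1, with sums of 466 to 704 CPM in cisplatin, 533 to 666 CPM in oxaliplatin and 362 to 388 CPM in vehicle. Satellite glia markers rose in 2 and fell in 3 of 8 in cisplatin, and rose in 1 and fell in 3 in oxaliplatin, with sums of 2968 to 3173 CPM in cisplatin, 3160 to 3341 CPM in oxaliplatin and 2578 to 2885 CPM in vehicle. Sensory neuron markers rose in 1 and fell in 4 of 14 in either drug. None of these markers was at 0 in any group, and their part in the values of the matrix chains was not tested.

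Calls among the laminin chains also ran both ways under TMM scaling alone. Their summed level was 682 to 712 CPM in cisplatin, 688 to 765 CPM in oxaliplatin and 671 to 707 CPM in vehicle. In cisplatin 2 of 11 rose and 2 fell, where 15.8% of all genes tested rose and 22.9% fell. In oxaliplatin 2 rose and 1 fell, where 17.5% of all genes tested rose and 24.1% fell. Without vehicle library 2, 1 rose and 1 fell in cisplatin, and 2 rose and 1 fell in oxaliplatin. Of all genes tested 19.2% then rose and 22.1% fell in cisplatin, and 20.4% and 23.0% in oxaliplatin. Under library totals 3 of 11 rose and 0 fell in cisplatin, and 5 rose and 0 fell in oxaliplatin. With that scaling 34.5% of all genes rose and 5.29% fell in cisplatin, and 36.9% and 5.74% in oxaliplatin. Lamb2, the beta chain of synaptic and vascular basement membranes, stood at 122, 116 and 101 CPM in cisplatin, 119, 118 and 133 CPM in oxaliplatin and 87.8, 101 and 84.7 CPM in vehicle. Vehicle library 2 overlapped the lowest cisplatin library, and all oxaliplatin libraries lay above vehicle. The increase was 0.32 (SE 0.08, adjusted p = 0.0111) in cisplatin and 0.44 (SE 0.08, adjusted p = 0.00152) in oxaliplatin, and both calls held under all 21 alternatives. Lamb1, the beta chain of the most widespread trimers, stood at 151, 148 and 152 CPM in cisplatin, 166, 148 and 156 CPM in oxaliplatin and 151, 146 and 168 CPM in vehicle, and was not called (-0.05, adjusted p = 0.573, and 0.01, adjusted p = 0.896). Once the GC and length trend was taken out Lamb1 was called in cisplatin (0.14, adjusted p = 0.0251) and oxaliplatin (0.18, adjusted p = 0.00621).

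Lama3, an alpha chain of epithelial laminins, fell in both drugs. It stood at 5.10, 4.48 and 5.40 CPM in cisplatin, 5.23, 5.31 and 4.12 CPM in oxaliplatin and 7.09, 5.89 and 8.84 CPM in vehicle. Its changes were -0.57 (SE 0.15, adjusted p = 0.0101) in cisplatin and -0.60 (SE 0.15, adjusted p = 0.00707) in oxaliplatin, and neither was called under library totals (-0.29 and -0.31). Once the GC and length trend was taken out Lama3 was at -0.35 (adjusted p = 0.0672) in cisplatin, where the call was lost, and -0.40 (adjusted p = 0.0389) in oxaliplatin. Without vehicle library 3 the cisplatin call of Lama3 was lost (-0.40, adjusted p = 0.0607). With a term for the replicate number and the trend taken out, the calls of Lama3 in both drugs were lost. Lamb3, a beta chain of epithelial laminins, averaged 0.247 ± 0.0374 CPM in cisplatin, 0.280 ± 0.0344 CPM in oxaliplatin and 0.250 ± 0.163 CPM in vehicle (SD, n = 3 each).

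Lama2 stood at 140, 147 and 136 CPM in cisplatin, 165, 145 and 156 CPM in oxaliplatin and 155, 171 and 155 CPM in vehicle. Its call in cisplatin (-0.18, SE 0.06, adjusted p = 0.0329) was lost without cisplatin library 1 or 3, oxaliplatin library 3, or vehicle library 1 or 2 (-0.12 to -0.18), and turned sign once the GC and length trend was taken out (0.28, adjusted p = 0.0115). In oxaliplatin it was not called (-0.04, adjusted p = 0.593), and the trend-removed value was 0.39 (adjusted p = 0.00139). Lama4 stood at 110, 103 and 104 CPM in cisplatin, 115, 105 and 111 CPM in oxaliplatin and 103, 103 and 99.6 CPM in vehicle. Lamc1, the gamma chain of most trimers, stood at 139, 140 and 144 CPM in cisplatin, 149, 126 and 133 CPM in oxaliplatin and 129, 136 and 150 CPM in vehicle. Neither was called in either comparison under TMM scaling alone. Once the GC and length trend was taken out Lama4 was called at 0.36 (adjusted p = 0.000278) in cisplatin and 0.39 (adjusted p = 0.000129) in oxaliplatin. Lamc1 was then called in cisplatin (0.16, adjusted p = 0.0421) and not in oxaliplatin (0.10, adjusted p = 0.174). Under library totals Lama4 was called in oxaliplatin (0.42, adjusted p = 0.0197) and not in cisplatin (0.35, adjusted p = 0.0558). Lama1, Lama5 and Lamc3 averaged 5.77 to 16.3 CPM in each group and were not called under TMM scaling alone. With the trend removed, and also under library totals, Lama5 rose in both drugs and Lamc3 in oxaliplatin.

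The members are long transcripts, and the fold changes varied with length. Median exon length was 6813.5 bases over the 38 members and 4059 over all genes with a length. Across 16380 genes, which are not independent replicates, Spearman's rho of log2 fold change with exon length was -0.407 in cisplatin and -0.408 in oxaliplatin, and over the members it was -0.590 and -0.452. All these genes were read in the same libraries. With the trend removed, 18 members rose and 4 fell in cisplatin (15.7% of all genes rose and 17.5% fell), and 15 rose and 5 fell in oxaliplatin (17.4% and 17.1%). Of the laminins 7 then rose in either drug, with 0 lower in cisplatin and 1 in oxaliplatin. The medians with the trend removed were 0.70 and 0.44 for the leukocyte and platelet integrins, Itgad included. They were 0.05 and -0.01 for the matrix integrins, where the cisplatin sign turned, and 0.22 and 0.35 for the laminins. Under library totals, which moved the median of all genes by 0.29 in cisplatin and 0.30 in oxaliplatin, 17 members rose and 0 fell in cisplatin (34.5% and 5.29% of all genes), and 15 rose and 2 fell in oxaliplatin (36.9% and 5.74%).

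**Figure D3:**
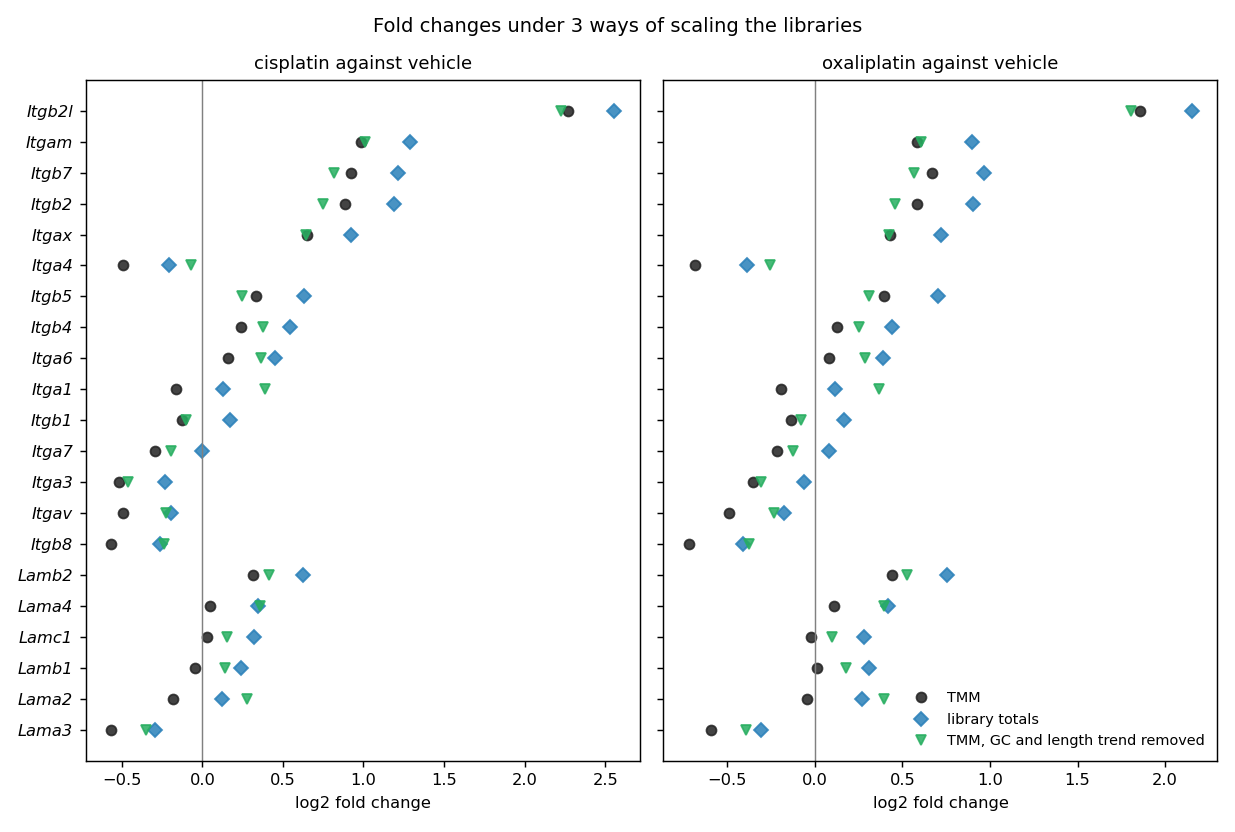
Log2 fold changes (x axis) of 21 subunit genes (y axis) in cisplatin against vehicle (left) and oxaliplatin against vehicle (right) under TMM, library totals, and TMM with the GC and length trend taken out. Itgb2l, Itgam, Itgb7, Itgb2, Itgb5 and Lamb2 lie right of 0 under all 3, while Itga1, Itga7, Itgb1, Lama2, Lamb1 and Lamc1 change side in at least 1 drug.

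A ratio of 2 subunits within a library does not depend on how libraries are scaled, though it still depends on length: Itgb5 has 3553 exonic bases and Itgb8 has 11060. These 6 ratios were chosen after their values were seen, and with 3 libraries against 3 the two-sided exact permutation test cannot give a p under 0.1. The ratio of Itgb5 to Itgb8, beta chains that compete for Itgav, was 0.156 ± 0.0257 in cisplatin, 0.180 ± 0.020 in oxaliplatin and 0.0832 ± 0.00885 in vehicle (SD, n = 3 each). Every drug library exceeded every vehicle library (exact p = 0.1 for each drug, 0.225 after adjustment over 18 tests). The ratio of Itga6 to Itga3 was 2.22 ± 0.322 in cisplatin, 1.88 ± 0.212 in oxaliplatin and 1.39 ± 0.156 in vehicle, and the drug libraries were again above vehicle (exact p = 0.1 for each). Lama4 to Lama2 was 0.751 ± 0.0448 in cisplatin, 0.711 ± 0.0131 in oxaliplatin and 0.639 ± 0.0311 in vehicle, without overlap (exact p = 0.1 for each). Itgb4 to Itgb1 was 0.218 ± 0.0203 in cisplatin, 0.203 ± 0.0187 in oxaliplatin and 0.170 ± 0.0160 in vehicle, where oxaliplatin overlapped vehicle (exact p = 0.2). Lamb2 to Lamb1 was 0.753 ± 0.0791 in cisplatin, 0.788 ± 0.0648 in oxaliplatin and 0.592 ± 0.0932 in vehicle, where cisplatin overlapped vehicle (exact p = 0.2). Itgam to Itgb2 was 1.27 ± 0.0949 in cisplatin, 1.18 ± 0.0620 in oxaliplatin and 1.18 ± 0.0967 in vehicle, with overlap (exact p = 0.3 for cisplatin and 1 for oxaliplatin).

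**Figure D4:**
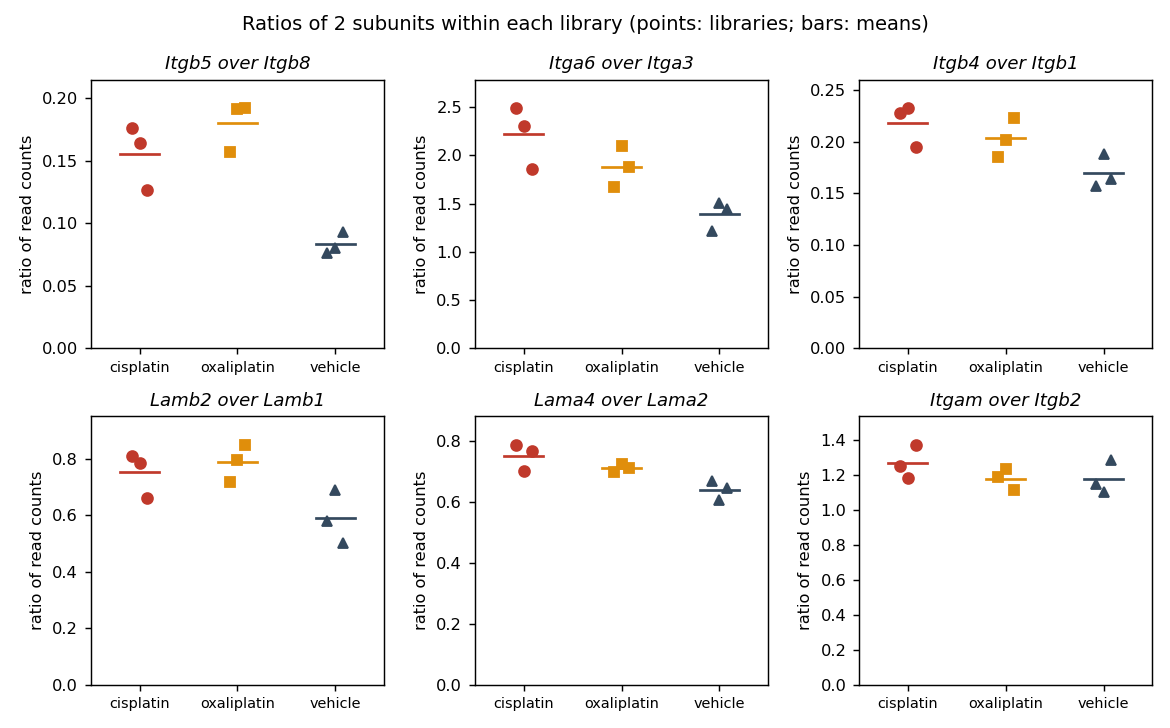
Ratio of the read counts of 2 subunits (y axis, from 0) in each of the 9 libraries (points) by group (x axis), with bars at the group means. Itgb5 over Itgb8 lies at 0.127 to 0.192 in the drug libraries and 0.0762 to 0.0931 in the vehicle libraries, and Itgam over Itgb2 overlaps between all groups.

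Cisplatin and oxaliplatin were given to the same cumulative dose, and 0 of the 38 members were called between them by edgeR. Of all genes tested 0.0115% were higher in cisplatin and 0.00% lower. At an unadjusted p under 0.05 there were 4 of the 38 members, Itga4, Itgam, Itga2b and Lama2, and 1111 of the 17348 genes tested. DESeq2 and limma-voom also called 0 of the members. The lowest adjusted p of the 38 genes compared was 0.746. All 10 leukocyte and platelet chains had positive log2 fold changes in cisplatin against oxaliplatin, as did 8413 of the 17348 genes tested. The 10 values ran between 0.19 and 0.91 with a median of 0.28, against -0.00 over all genes. The largest was that of Itgad, which reached the count minimum in 3 cisplatin libraries and 1 oxaliplatin library. All 10 were read in the same libraries, so they are not independent. Itgam differed by 0.40 (95% interval 0.05 to 0.75), Itgb2 by 0.30 (-0.09 to 0.69), Itgb7 by 0.26 (-0.07 to 0.58) and Itgb2l by 0.42 (-0.21 to 1.05). Itga4, which fell in both drugs, differed by 0.19 (0.04 to 0.35). For Itga2b the difference was 0.42 (0.03 to 0.81), and the cisplatin libraries all lay above the oxaliplatin libraries. These intervals are not adjusted for the number of genes, and they do not show that the drugs act alike. The medians were 0.03 for the matrix integrins and -0.06 for the laminins.

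Among the proteins that couple integrins to the actin skeleton, more transcripts fell than rose under TMM scaling, as over all genes tested. Of 25 tested genes of this adhesion complex, 2 rose and 10 fell in cisplatin, and 1 rose and 12 fell in oxaliplatin. Over all genes tested 15.8% rose and 22.9% fell in cisplatin, and 17.5% rose and 24.1% fell in oxaliplatin. The median was -0.10 in cisplatin and -0.18 in oxaliplatin, and 0.19 and 0.12 under library totals, so the sign of the median depended on the scaling. Parvb, an adaptor of the kinase Ilk, averaged 28.1 ± 4.65 CPM in cisplatin, 27.1 ± 3.34 CPM in oxaliplatin and 63.4 ± 7.02 CPM in vehicle (SD, n = 3 each). Its log2 fold change was -1.18 (adjusted p = 4.24e-05) in cisplatin and -1.23 (adjusted p = 2.2e-05) in oxaliplatin. Zyx, a protein of actin-anchored adhesions, fell by 0.46 and 0.60, and Tns1, which joins integrin tails to actin, fell by 0.67 and 0.70. Fermt3, the kindlin of blood cells, which was named after its values were seen, rose in cisplatin (0.67, adjusted p = 0.00672) and was not called in oxaliplatin (0.39, adjusted p = 0.0708).

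Among 22 tested ligands and basement membrane partners, 10 rose and 3 fell in cisplatin, and 10 rose and 4 fell in oxaliplatin, with medians of 0.36 and 0.31. The shares of all genes tested that rose and fell were 15.8% and 22.9% in cisplatin, and 17.5% and 24.1% in oxaliplatin. Fgb, a fibrinogen chain, was at 0 in all groups. Vwf, which carries platelets to the vessel wall, rose by 0.75 in cisplatin and 0.73 in oxaliplatin, and Mfge8, an RGD ligand of Itgav integrins, by 0.62 and 0.64. Agrn, a laminin-binding proteoglycan, fell by 0.58 and 0.68. The leukocyte ligands Icam1 and Vcam1 were looked at after their values were seen. Icam1, a ligand of Itgb2 integrins, averaged 4.79 ± 0.984 CPM in cisplatin, 5.15 ± 0.838 CPM in oxaliplatin and 2.82 ± 0.398 CPM in vehicle, and rose by 0.78 (adjusted p = 0.00537) and 0.89 (adjusted p = 0.00216). Vcam1, the ligand of Itga4 integrins, rose by 0.42 (adjusted p = 0.0105) and 0.40 (adjusted p = 0.0131). Of 13 laminin receptors that are not integrins, 4 rose and 5 fell in cisplatin and 5 rose and 5 fell in oxaliplatin. Dmd, which links dystroglycan to actin, fell by 0.41 and 0.45, while the syndecans Sdc1 and Sdc4 rose by 0.41 each in cisplatin and by 0.53 and 0.41 in oxaliplatin. Between the drugs edgeR called 0 genes of these 3 lists.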

How the data were processed

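The authors deposited raw read counts per gene symbol for each library, from stranded total RNA sequenced as single-end reads of 75 nucleotides, per the labels' protocols. STAR, SAMtools, HTSeq and the build mm10 (GRCm38) are named in the submitters' processing notes; versions, the annotation and the counting's strand setting are not stated in these sources. The 5 classes of reads assigned to no gene, 42.8 to 74.5% of recorded reads, were left out. Members and lists were chosen with earlier results of these data known. Positions and exon lengths came from GENCODE M21, which held 91.7613% of the symbols.

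All 9 libraries were fitted together in edgeR 4.0.16 (limma 3.58.1, R 4.3.3) with 1 term per group, TMM scaling, filterByExpr and the two-sided quasi-likelihood F test; SE was obtained by dividing the absolute log2 fold change by √F. Simulated counts in which 200 genes had been altered were used to test the fit. Nothing in the labels says more of the pools, so p-values measure the spread between pools. Alternatives were DESeq2 1.42.0 and its size factors, limma-voom, library totals, other filters, a threshold of 0.1, fits of 2 groups, a replicate term, removal of structural RNA, each library fitted against GC and exon length (mgcv 1.9.3), and each library left out. Members called against vehicle other than the 1 below, the subunits that define a group and members that differ between the drugs were given values per library; of other lists, up to 3 genes of smallest p in cisplatin against vehicle were named, and exceptions are marked. The values of 1 member are not reported here, though it is counted with its class.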

Additional observations from a re-analysis of the deposited data

How the results depend on the processing

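Of the 38 members, 11 rose and 7 fell in cisplatin against vehicle, and 7 rose and 7 fell in oxaliplatin. Over all genes tested 15.8% rose and 22.9% fell in cisplatin, and 17.5% rose and 24.1% fell in oxaliplatin. Under library totals alone 17 members rose and 0 fell in cisplatin, and 15 rose and 2 fell in oxaliplatin. The shares of all genes were then 34.5% and 5.29% in cisplatin, and 36.9% and 5.74% in oxaliplatin. With the GC and length trend taken out 18 members rose and 4 fell in cisplatin, and 15 rose and 5 fell in oxaliplatin. Here 15.7% of all genes rose and 17.5% fell in cisplatin, and 17.4% and 17.1% in oxaliplatin. In a fit of the 2 groups alone 7 members rose and 7 fell in cisplatin, and 7 rose and 6 fell in oxaliplatin. Those fits called 2368 of 16796 genes higher and 3677 lower in cisplatin, and 2727 of 16892 higher and 3961 lower in oxaliplatin. With a library left out, 6 to 12 members rose and 6 to 7 fell in cisplatin, and 5 to 8 rose and 4 to 6 fell in oxaliplatin. Of the 17460 to 17711 genes then tested, 1787 to 3401 rose and 2961 to 3908 fell in cisplatin. In oxaliplatin 1941 to 3619 of them rose and 3148 to 4176 fell. Negative log2 fold changes of members numbered 16 in cisplatin and 19 in oxaliplatin, and 7 and 5 under library totals. Of all 17348 genes 8607 and 8606 were negative, and 3724 and 3797 under library totals. Between the drugs 0 members were called in every fit. Itgam, Itgb2, Itgb2l, Itgb7 and Lamb2 were among those that kept their cisplatin calls, and Itga4, Itgb2l, Itgb5, Itgb7, Itgb8 and Lamb2 their oxaliplatin calls, under all 21 alternatives. Itgad could not be tested at a minimum of 1 CPM in 3 libraries. For the scarce Itgad and Lamb3, counting depth limits what can be seen.

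Among the members whose fold changes are given, these log2 fold changes changed sign, and the cause was not tested. Library totals gave, in cisplatin, Itga1 0.13, Itgb1 0.17, Lama2 0.12 and Lamb1 0.24, and in oxaliplatin Itga1 0.11, Itga2b 0.27, Itga7 0.081, Itgb1 0.17, Itgb3 0.16, Lama2 0.27 and Lamc1 0.28. The GC and length trend taken out gave, in cisplatin, Itga1 0.39, Lama2 0.28 and Lamb1 0.14, and in oxaliplatin Itga1 0.36, Itga2b 0.015, Lama2 0.39 and Lamc1 0.10. No count filter gave, in oxaliplatin, Itga2b 0.0096, Lama2 0.0090 and Lamc1 0.028, limma-voom Itga2b 0.0054, and the minimum of 1 CPM Lamc1 0.0038. With a library left out, the ranges were, in cisplatin, -0.0098 to 0.28 for Itgb3 and -0.069 to 0.015 for Lamb1, and in oxaliplatin -0.24 to 0.17 for Itga2b, -0.15 to 0.33 for Itgal, -0.22 to 0.076 for Itgb3, -0.068 to 0.022 for Lama2, -0.0090 to 0.073 for Lamb1 and -0.065 to 0.039 for Lamc1.

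The replicate numbers did not pair the samples: same-numbered libraries correlated between -0.141 and 0.105 in their deviations, and 4 of 9 libraries matched their own number best. With the replicate number as a block 10 members rose and 7 fell in cisplatin, where Itga9 lost its call. In oxaliplatin 7 rose and 7 fell. Of all 17348 genes that fit called 2685 higher and 3958 lower in cisplatin, and 2984 and 4156 in oxaliplatin. The block with the GC and length trend taken out gave 4 members lower in cisplatin, and 14 higher and 4 lower in oxaliplatin. Of all genes it called 2881 lower in cisplatin, and 2868 higher and 2862 lower in oxaliplatin. It also turned, in cisplatin, Itga1 to 0.38, Lama2 to 0.28 and Lamb1 to 0.14, and in oxaliplatin Itga1 to 0.36, Itga2b to 0.010, Lama2 to 0.40 and Lamc1 to 0.10.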
